A study of Rattus norvegicus with 59 samples.

Results

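The NF-kB pathway was followed through 9 of its genes in rat kidneys of a strain with high blood pressure, the Fawn-Hooded Hypertensive (FHH) rat. They are the subunits Nfkb1, Nfkb2 and Rela, the inhibitors Nfkbia and Nfkbib, the kinase Ikbkb, and the target genes Birc3, Bcl2a1 and Tnfaip2. They were chosen by symbol, with earlier results of these data known, and are 9 of the 13337 gene symbols with a probe on the array. Each is read by 1 probe, so no gene has a second probe to set beside the first.

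NF-kB is a family of dimeric transcription factors that inhibitor proteins hold in the cytoplasm of resting cells. When a receptor for an inflammatory signal is engaged, the IKK complex, of which Ikbkb encodes a catalytic subunit, phosphorylates the inhibitors, which are then degraded, and the dimers enter the nucleus. Rela encodes a subunit with a transactivation domain, Nfkb1 and Nfkb2 encode precursors that are processed to DNA-binding subunits, and Nfkbia and Nfkbib encode inhibitors. Nfkbia is itself a classical target that feeds back on the pathway. Birc3 encodes an inhibitor of apoptosis, Bcl2a1 a survival protein of the Bcl-2 family found mostly in leukocytes, and Tnfaip2 a protein induced by tumour necrosis factor. In the kidney the pathway is known for its part in inflammation and tubular injury. An array measures mRNA only, and NF-kB activity is set largely at the protein level.

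The 59 rats, all of the FHH strain, which also develops progressive glomerular damage, gave 1 array of kidney RNA each on Illumina RatRef-12 BeadChips. Pyrrolidine dithiocarbamate (PDTC), named in the labels as an NF-kB inhibitor, was given to the pregnant dams in water holding 150 mg per L. Exposure began 2 weeks ahead of birth and ended 4 weeks after it, so pups were taken during exposure and adults long after its end. At 2 days there were 4 female and 4 male PDTC rats against 5 female and 5 male untreated rats, and at 2 weeks 6 female and 4 male PDTC rats against 5 female and 6 male untreated rats. Adults were 5 rats in each of the 4 groups, the females 42 and the males 36 weeks old, so that sex and weeks of age cannot be told apart in adults. The labels give no litters and no rats of another strain, and p-values measure the spread between these rats only.

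Values are log2 of background-corrected, quantile-normalized intensities, and a difference of 1 is a doubling. Each array read 9139 to 12488 of 22523 probes above background. The median array read 11936 at 2 days and 12121 at 2 weeks, and 10188 among adults. Of the kidney segment markers 10 of the 11 on the array were above background on all 59 arrays, among them Nphs1 of the glomerulus, Slc34a1 of the proximal tubule and Umod of the thick ascending limb. Synpo was above background on 1 array. The array of 2-week untreated male 6 stood apart: it is the only pup array on a slide of adult arrays, and its Rela level of 8.93 lay above the 7.90 to 8.36 of the other 10 untreated rats of that age. Age differences and 2-week PDTC differences are also given without it below. Nfkb2, Rela, Nfkbia, Nfkbib, Ikbkb and Bcl2a1 were above background on all 59 arrays, Nfkb1 and Birc3 on 46 each and Tnfaip2 on 34.

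Of the 9 genes, 7 have a promoter in the RefSeq table used here (Nfkb1, Nfkb2, Rela, Nfkbia, Nfkbib, Tnfaip2 and Bcl2a1). The window runs from 250 bases before to 50 bases after the start, on assembly GRCr8. The kappa B consensus, searched on both strands, was matched in 3 of these 7 windows (42.9%), and in 1400 of all 33469 windows of that length (4.18%). The 3 are shown because they hold a match. The windows of the subunit Rela, the inhibitor Nfkbib and the target genes Tnfaip2 and Bcl2a1 hold none. The capitals mark the match. Nfkb1 holds GGGAATTTCC 4 bases after the start (chr2:226805413-226805712, minus strand). Nfkb2 holds GGGACTTTCC 20 bases before it (chr1:255108124-255108423, plus strand). Nfkbia holds GGGAATTTCC on the other strand, 31 bases before the start (chr6:78597023-78597322, minus strand), printed here as GGAAATTCCC. These exact forms, which are cases of the consensus, were found in 25 windows for GGGAATTTCC (0.0747%) and in 37 for GGGACTTTCC (0.111%). A match is a run of letters, and no binding was measured.
Nfkb1: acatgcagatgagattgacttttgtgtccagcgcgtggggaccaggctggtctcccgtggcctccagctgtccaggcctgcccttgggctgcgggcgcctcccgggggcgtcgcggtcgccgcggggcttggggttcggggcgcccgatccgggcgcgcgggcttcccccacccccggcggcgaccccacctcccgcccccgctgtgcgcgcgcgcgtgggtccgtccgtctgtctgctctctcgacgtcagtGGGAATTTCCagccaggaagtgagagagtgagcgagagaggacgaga
Nfkb2: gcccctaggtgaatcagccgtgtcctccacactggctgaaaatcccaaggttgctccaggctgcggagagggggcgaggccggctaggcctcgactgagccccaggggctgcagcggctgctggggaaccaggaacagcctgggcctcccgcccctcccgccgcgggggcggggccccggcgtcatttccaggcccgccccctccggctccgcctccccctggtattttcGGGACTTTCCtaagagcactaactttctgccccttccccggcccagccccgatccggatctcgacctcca
Nfkbia: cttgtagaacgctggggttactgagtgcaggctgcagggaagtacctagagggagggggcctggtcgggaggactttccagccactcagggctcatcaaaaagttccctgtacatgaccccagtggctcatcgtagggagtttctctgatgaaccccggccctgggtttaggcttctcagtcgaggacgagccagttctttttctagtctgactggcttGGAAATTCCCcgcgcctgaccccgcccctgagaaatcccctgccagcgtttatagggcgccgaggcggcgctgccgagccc

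The first comparison asked whether PDTC given around birth changed the mRNA of the pathway it is described as inhibiting, and it detected no change of these genes at any age. At 2 days and 2 weeks 0 of 9 passed the threshold, and in adults 0 of the 8 tested (adjusted p under 0.05, limma with Benjamini-Hochberg over all probes tested). The background share of probes called was 0% at each age, since 0 of 13163 probes passed at 2 days, 0 of 13360 at 2 weeks and 0 of 11701 in adults. At 2 days 373 probes passed with array weights and 258 without untreated male 4, none of them a member. At an unadjusted p under 0.05, 2085 probes lay at 2 days (15.8%), 697 at 2 weeks (5.22%) and 668 in adults (5.71%), and of the members only Birc3 at 2 days. In the plot of all members by age and treatment, the PDTC and untreated rats overlap for every gene at every age when both sexes are pooled, as they do for nearly all probes (no overlap for 0.0152% at 2 days, 0% at 2 weeks and 0.00855% in adults).

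**Figure D1:**
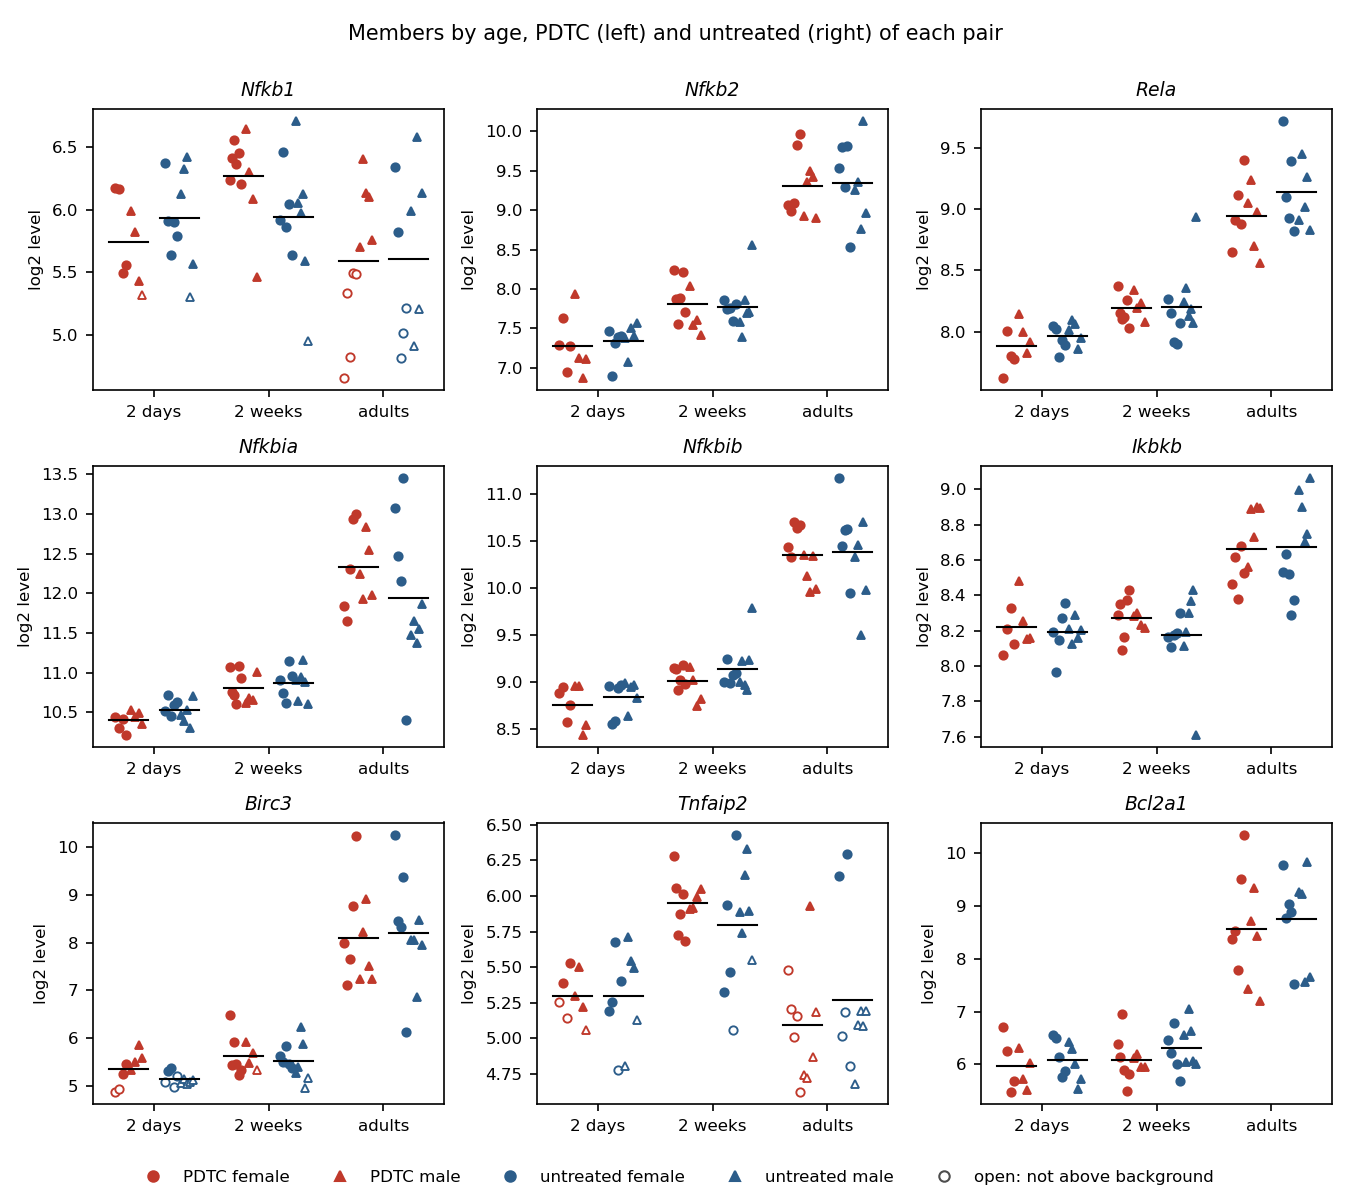
Log2 level of each of the 9 genes (vertical axis) in every rat at 2 days, 2 weeks and in adults (horizontal axis), PDTC left of untreated. Circles are females and triangles males, open symbols are arrays where the probe was not above background, and the line is the group mean. Birc3 and Bcl2a1 show the widest spread among adults, and PDTC and untreated rats overlap in every panel and age.

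Among the subunits, Nfkb1 lay at 5.32, 5.69 and 6.17 (lowest, median and highest) in 2-day PDTC rats and at 5.30, 5.91 and 6.42 in untreated rats. At 2 weeks it lay at 5.46, 6.33 and 6.64 in PDTC rats and at 4.95, 5.98 and 6.70 in untreated rats. The direction of the difference was thus not the same at both ages. The difference was −0.19 ± 0.165 (SE) at 2 days and 0.30 ± 0.17 at 2 weeks (limma adjusted p = 0.825), where 9 of 10 PDTC rats lay above the mean of untreated rats of their sex. The difference between the 2 effects, 2 weeks minus 2 days, was 0.49 ± 0.247, and it did not pass (adjusted p = 1, 0 of 14079 probes called, a background of 0%).

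In adults Nfkb1 lay at 4.66, 5.60 and 6.41 in PDTC rats and at 4.82, 5.52 and 6.58 in untreated rats, a difference of −0.01.

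For Nfkb2 and Rela the pup differences were close to 0, at −0.06 and −0.08 at 2 days and at 0.01 and 0.00 at 2 weeks. Nfkb2 lay at 6.88, 7.20 and 7.93 in 2-day PDTC rats, against 6.89, 7.39 and 7.56 in untreated rats, and at 7.42, 7.79 and 8.25 in 2-week PDTC rats, against 7.39, 7.75 and 8.55 in untreated rats of that age. Adult levels of Nfkb2 were 8.90, 9.22 and 9.97 in PDTC rats and 8.53, 9.33 and 10.13 in untreated rats, with a difference of −0.04. Rela lay at 7.63, 7.87 and 8.15 in 2-day PDTC rats, against 7.80, 7.98 and 8.09 in untreated rats, and at 8.03, 8.17 and 8.38 in 2-week PDTC rats, against 7.90, 8.15 and 8.93 in untreated rats of that age. Both genes thus overlapped at each pup age. In adults Rela lay at 8.56, 8.94 and 9.40 in PDTC rats and at 8.83, 9.06 and 9.72 in untreated rats. That difference was −0.20 ± 0.138 (limma adjusted p = 0.807), and with the sexes pooled it was below 0 on each of the 4 adult slides. Within 1 sex it was below 0 on 3 of 4 slides in males and on 2 of 4 in females.

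Of the inhibitors, Nfkbia lay at 10.22, 10.43 and 10.53 in 2-day PDTC rats and at 10.30, 10.52 and 10.72 in untreated rats. The difference was −0.13 ± 0.063 (limma adjusted p = 0.329), with 6 of 8 PDTC rats below the untreated mean of their sex. With the sexes pooled it was below 0 on all 5 slides that held both treatments. Sex is not matched within these slides. Within 1 sex it was below 0 on 1 of 3 slides in males and on 2 of 2 in females. At 2 weeks the Nfkbia difference was −0.07, with levels of 10.60, 10.74 and 11.08 in PDTC rats and 10.61, 10.90 and 11.16 in untreated rats. In adults Nfkbia lay at 11.65, 12.27 and 13.00 in PDTC rats, against 10.40, 11.76 and 13.45 in untreated rats, and differed by 0.38 ± 0.287 (limma adjusted p = 0.824). The lowest value, 10.40, belongs to untreated female 5, and without that array the difference was 0.14. Nfkbib, the other inhibitor, differed by −0.08 at 2 days, −0.14 at 2 weeks and −0.02 in adults, where it lay at 9.96, 10.34 and 10.70 in PDTC rats and at 9.50, 10.46 and 11.17 in untreated rats. Ikbkb differed by 0.03, 0.09 and −0.01 at the 3 ages, and in adults it lay at 8.38, 8.65 and 8.90 in PDTC rats and at 8.29, 8.67 and 9.06 in untreated rats.

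Among the target genes, Birc3 lay at 4.88, 5.39 and 5.85 in 2-day PDTC rats and at 4.98, 5.10 and 5.37 in untreated rats. It was above background on 6 of 8 PDTC arrays and on 2 of 10 untreated arrays. The difference was 0.21 ± 0.0877 (limma adjusted p = 0.251), with 6 of 8 PDTC rats higher. At 2 weeks Birc3 lay at 5.22, 5.47 and 6.48 in PDTC rats and at 4.95, 5.46 and 6.22 in untreated rats, a difference of 0.10, and in adults the difference was −0.10. Bcl2a1, whose values overlapped at all ages, differed by −0.12 at 2 days, by −0.23 ± 0.171 at 2 weeks and by −0.18 in adults. Its 2-week levels were 5.50, 6.04 and 6.95 in PDTC rats and 5.69, 6.21 and 7.05 in untreated rats. Tnfaip2 differed by 0.00 at 2 days and 0.17 at 2 weeks, and in adults it was above background on 3 of 20 arrays and was not tested.

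Without the array of 2-week untreated male 6, the 2-week differences were 0.21 for Nfkb1, 0.08 for Nfkb2, 0.06 for Rela, −0.09 for Nfkbia, −0.07 for Nfkbib, 0.04 for Ikbkb, 0.07 for Birc3, −0.27 for Bcl2a1 and 0.13 for Tnfaip2. None passed with or without it.

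The precision of these differences is given by their 95% intervals. At 2 days the intervals of the fold change, PDTC over untreated, ran from 0.688 (the lower end of Nfkb1) to 1.31 (the upper end of Birc3). At 2 weeks they ran from 0.667 (Bcl2a1) to 1.58 (Nfkb1). In adults they were widest, from 0.494 (Birc3) to 1.97 (Nfkbia). Values of leukocyte markers are given beside these: 11 of 13 tested had lower values in PDTC rats at 2 days (median −0.08) and 11 of 13 at 2 weeks (median −0.17), with 0 called. With arrays scaled to one median these were 6 of 13 lower at 2 days (median 0.00) and 9 of 13 at 2 weeks (median −0.07), so the count at 2 days depends on the scale. On that scale the median of all probes was 0.12 at 2 days and 0.13 at 2 weeks. The median of the leukocyte markers at 2 days thus differed by −0.12 from that of all probes. The mean log2 level of these markers was 6.40 to 6.56 in PDTC and 6.44 to 6.80 in untreated rats at 2 days, and 6.31 to 6.56 in PDTC and 6.44 to 6.94 in untreated rats at 2 weeks, and their part in these differences was not tested. Kidney tissue is bulk RNA, in which fewer cells of a type and less RNA per cell cannot be told apart.

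**Figure D2:**
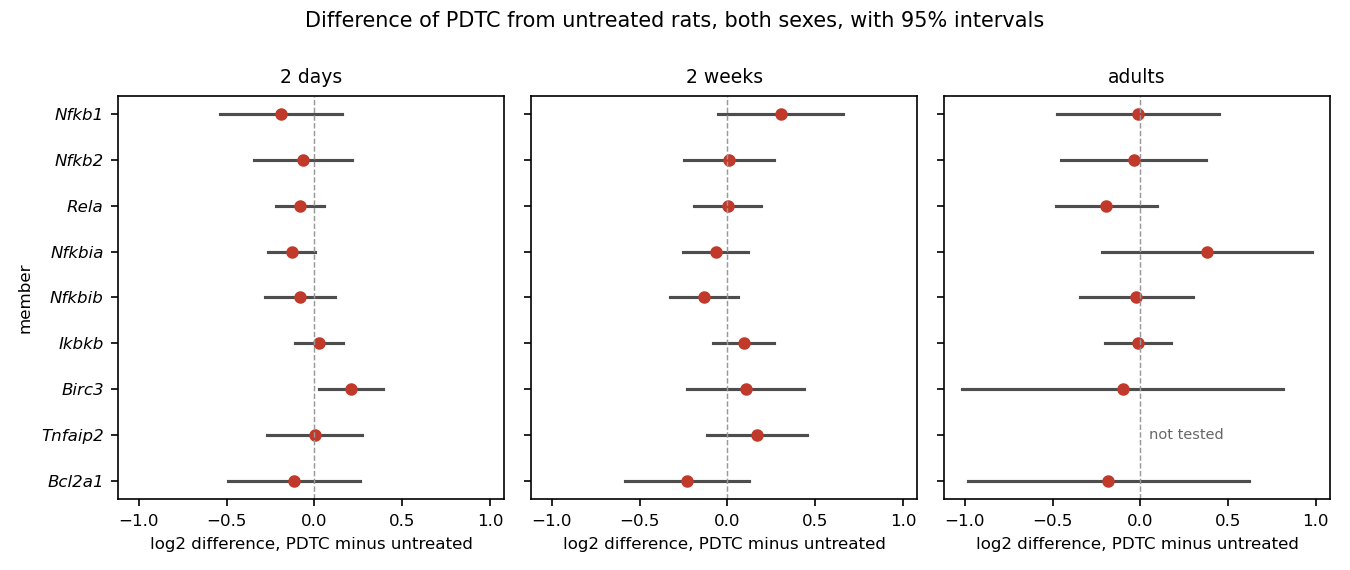
Log2 difference, PDTC minus untreated with both sexes together (horizontal axis), for each gene (rows) at 2 days, 2 weeks and in adults. Points are limma estimates and bars their 95% intervals; Tnfaip2 was not tested in adults. The adult intervals are the widest, and no difference passed after adjustment.

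Within single sexes, 3 contrasts had groups that did not overlap, and none passed after adjustment over all probes. These genes were singled out after their values were seen. In 2-day males, Birc3 read 5.32, 5.51, 5.85 and 5.58 in PDTC rats, all above background, and 5.05, 5.14, 5.03, 5.09 and 5.12 in untreated rats, none above background. The PDTC level was at least 1.22-fold higher, taking for the untreated rats the lowest signal among probes above background on each array (the measured difference was 0.48 ± 0.124, limma adjusted p = 0.414). Such a lack of overlap held for 2.55% of all probes (1.36% higher in PDTC males). In 2-day females Birc3 read 4.88, 4.92, 5.25 and 5.45 in PDTC rats and 5.09, 5.30, 5.37, 4.98 and 5.20 in untreated rats, which overlap, with a difference of −0.06. The effect in females minus that in males was −0.54 ± 0.175 (limma adjusted p = 1, 0% of probes called).

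For Nfkbia it was the 2-day females whose groups did not overlap. It read 10.44, 10.30, 10.42 and 10.22 in PDTC females, all below the 10.52, 10.72, 10.45, 10.59 and 10.63 of untreated females. The difference was −0.24 ± 0.0891 (limma adjusted p = 0.654), and 2.37% of all probes did not overlap in that contrast (1.05% lower in PDTC females). In males of that age it was −0.02. Over the alternatives in processing, the difference in females ran from −0.24 to −0.04.

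In adult males Nfkbia read 12.25, 11.93, 12.84, 12.55 and 11.98 in PDTC rats, each above the 11.48, 11.65, 11.37, 11.55 and 11.87 of untreated rats. The difference was 0.73 ± 0.406 (limma adjusted p = 0.631), and 0.795% of probes did not overlap there (0.291% higher in PDTC males). In adult females Nfkbia read 11.84, 11.65, 12.30, 12.93 and 13.00 in PDTC rats and 13.07, 12.47, 12.16, 13.45 and 10.40 in untreated rats, where the PDTC range lies within the untreated one, with a difference of 0.04. The effect in females minus that in males was −0.69 (limma adjusted p = 0.735, 0% of probes called). The Nfkbia effect in adults minus that at 2 weeks was 0.45 (limma adjusted p = 0.998, 0 of 13951 probes called). Without untreated female 5 the difference in adult females was −0.44, the effect in females minus that in males −1.16 and the effect in adults minus that at 2 weeks 0.21, and none of these passed. Leukocyte markers had lower values in PDTC rats for 12 of 13 in adult males (median −0.41) and higher values for 11 of 13 in adult females (median 0.29). Tubular injury markers had lower values for 6 of 6 in adult males (median −0.19) and higher values for 6 of 6 in adult females (median 0.84), with 0 called in either sex. Their part in the Nfkbia values was not tested.

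**Figure D3:**
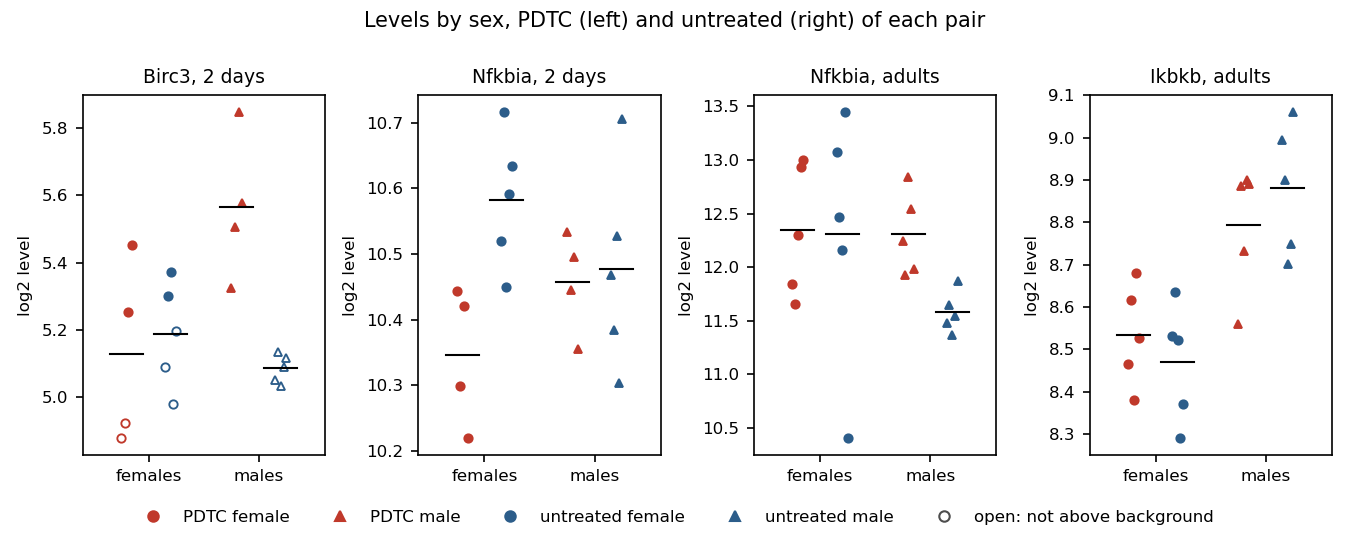
Log2 level in every rat (vertical axis) of Birc3 at 2 days, Nfkbia at 2 days, Nfkbia in adults and Ikbkb in adults, by sex, PDTC left of untreated (horizontal axis). Open symbols are arrays where the probe was not above background. The PDTC and untreated points separate for Birc3 in 2-day males, for Nfkbia in 2-day females and for Nfkbia in adult males; none of the 3 passed after adjustment.

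Most of the 9 genes changed with age in untreated rats. At 2 weeks Nfkb2, Nfkbia, Nfkbib, Birc3 and Tnfaip2, 5 of the 9, were higher than at 2 days and none was lower, against a background of 37.8% of 13378 probes called (16.9% higher). Adults against 2 weeks had 7 genes higher and Tnfaip2 lower, against 64% of 13114 probes called (31.7% higher and 32.3% lower). Adults against 2 days had 7 higher and none lower, against 71.4% of 13079 probes called (35.1% higher). Among these calls, Birc3 at 2 days and Tnfaip2 in adults were above background on only 2 of 10 untreated arrays each. In comparisons with those groups, both genes reached the filter of 4 arrays through the other age, where they were higher. The median difference of the 9 genes was 0.30 between 2 weeks and 2 days, against −0.01 for all probes tested, and 1.08 between adults and 2 weeks, against 0.00.

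These counts depend on how the arrays are scaled. When arrays were scaled to one median in place of quantile normalization, the median of all probes shifted by −0.57 between adults and 2 weeks, with 1582 probes called higher and 7583 lower. The members then split into 4 higher and 2 lower. Nfkbia (limma adjusted p = 0.245) and Rela (limma adjusted p = 0.841) no longer passed, and Ikbkb turned (−0.43) and did not pass. Nfkb1 (−0.52) and Tnfaip2 passed as lower. Between adults and 2 days the members split into 5 higher and 2 lower on that scale, with 2039 probes higher and 7367 lower. Between 2 weeks and 2 days, Nfkbia (adjusted p = 0.102) and Nfkbib (adjusted p = 0.0738) did not pass in limma on that scale, nor Nfkbia (adjusted p = 0.166) and Birc3 (adjusted p = 0.35) in 1 fit of all 59 arrays. Relative to the median of all probes, the scaled differences were 2.43 for Birc3, 2.14 for Bcl2a1, 1.26 for Nfkb2, 0.97 for Nfkbia, 0.61 for Rela and 0.15 for Ikbkb. Pup and adult arrays lie on different slides apart from the array of 2-week male 6, so slide and age cannot be told apart between them.

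Of the subunits, Nfkb2 lay at 6.89, 7.39 and 7.56 in 2-day, at 7.39, 7.75 and 8.55 in 2-week and at 8.53, 9.33 and 10.13 in adult untreated rats. Its level at 2 weeks was 1.35-fold that at 2 days (0.44 ± 0.113, limma adjusted p = 0.00398), with 11 of 11 rats above the 2-day mean of their sex, and the adult level was 2.97-fold that at 2 weeks (1.57 ± 0.177, limma adjusted p = 1.34e-07). Without 2-week male 6, whose value of 8.55 is the one that reaches into the adult range, these differences were 0.36 and 1.65, and both passed. Adults and 2-day rats did not overlap for Nfkb2, Rela, Nfkbib, Birc3 and Bcl2a1, as for 30.2% of all probes (13.5% higher in adults).

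Rela lay at 7.80, 7.98 and 8.09 in 2-day, at 7.90, 8.15 and 8.93 in 2-week and at 8.83, 9.06 and 9.72 in adult untreated rats. The step to 2 weeks was 0.22 ± 0.0896 and missed the threshold (limma adjusted p = 0.0538), but without male 6 it was 0.16 and passed (limma adjusted p = 0.0324), and it also passed without untreated males 3, 4 or 5 or untreated females 3 or 4 of 2 weeks. The adult level was 1.93-fold that at 2 weeks (0.95 ± 0.128, limma adjusted p = 1.76e-06), and 1.01 without male 6, while with arrays scaled to one median this difference was 0.04. Nfkb1 did not pass between ages, with medians of 5.91, 5.98 and 5.52 at the 3 ages, and it was above background on 5 of 10 adult untreated arrays. Its differences were 0.01 between 2 weeks and 2 days and −0.34 ± 0.23 between adults and 2 weeks (limma adjusted p = 0.201), or 0.10 and −0.44 without male 6. With slide as a fixed term the second of these was 1.26, which did not pass.

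Both inhibitors were higher at each later age on quantile-normalized values. Nfkbia lay at 10.30, 10.52 and 10.72 in 2-day, at 10.61, 10.90 and 11.16 in 2-week and at 10.40, 11.76 and 13.45 in adult untreated rats. Adults overlapped both pup ages through untreated female 5 alone. Its level at 2 weeks was 1.26-fold that at 2 days (0.34 ± 0.0805, limma adjusted p = 0.00214), and the adult level was 2.12-fold that at 2 weeks (1.08 ± 0.24, limma adjusted p = 0.000508), or a difference of 1.32 without adult untreated female 5. Without 2-week male 6 these Nfkbia differences were 0.36 and 1.06. Nfkbib lay at 8.55, 8.94 and 8.99 in 2-day, at 8.92, 9.07 and 9.79 in 2-week and at 9.50, 10.46 and 11.17 in adult untreated rats. The Nfkbib level was 1.23-fold higher at 2 weeks than at 2 days (0.30 ± 0.0973, limma adjusted p = 0.0188) and 2.38-fold higher in adults than at 2 weeks (1.25 ± 0.154, limma adjusted p = 5.15e-07). Without 2-week male 6, whose Nfkbib value of 9.79 lies in the adult range, these differences were 0.24 and 1.31.

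Ikbkb, the kinase, lay at 7.97, 8.20 and 8.36 in 2-day, at 7.61, 8.19 and 8.43 in 2-week and at 8.29, 8.67 and 9.06 in adult untreated rats, so that the pup ages overlap throughout. The pup ages differed by −0.02 (limma adjusted p = 0.921). Adults were 1.41-fold above 2 weeks (0.50 ± 0.0992, limma adjusted p = 0.000174), but this sign depends on the scale. With arrays scaled to one median the Ikbkb difference was −0.43, which did not pass. Without male 6 the quantile-normalized differences were 0.04 and 0.44.

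Among the target genes, Birc3 lay at 4.98, 5.10 and 5.37 in 2-day, at 4.95, 5.46 and 6.22 in 2-week and at 6.13, 8.19 and 10.25 in adult untreated rats, where only the lowest adult lay within the 2-week range. Birc3 was above background on 2 of 10 untreated arrays at 2 days, 9 of 11 at 2 weeks and 10 of 10 in adults. The measured difference between 2 weeks and 2 days was 0.38 ± 0.12 (limma adjusted p = 0.0148), and as most 2-day arrays did not read the probe above background its size is uncertain. Birc3 was 6.39-fold higher in adults than at 2 weeks (2.68 ± 0.333, limma adjusted p = 5.83e-07). Bcl2a1 lay at 5.52, 6.07 and 6.56 in 2-day, at 5.69, 6.21 and 7.05 in 2-week and at 7.52, 8.96 and 9.83 in adult untreated rats, with adults apart from both pup ages. The pup ages did not differ past the threshold (0.23, limma adjusted p = 0.294), and adults were 5.44-fold above 2 weeks (2.44 ± 0.282, limma adjusted p = 1.94e-07), where 12.3% of probes did not overlap (5.06% higher in adults). With arrays scaled to one median the adult differences from 2 weeks were 1.85 for Birc3 and 1.56 for Bcl2a1, and without 2-week male 6 they were 2.64 and 2.40. The pup differences without it were 0.41 and 0.27.

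Tnfaip2 had its highest median at 2 weeks. It lay at 4.78, 5.33 and 5.71 in 2-day, at 5.06, 5.89 and 6.42 in 2-week and at 4.68, 5.14 and 6.29 in adult untreated rats, all close to background. It was above background on 7 of 10 arrays at 2 days, 9 of 11 at 2 weeks and 2 of 10 in adults. The level at 2 weeks was 1.40-fold that at 2 days (0.48 ± 0.158, limma adjusted p = 0.0189), and the measured difference between adults and 2 weeks was −0.51 ± 0.189 (limma adjusted p = 0.0216), of uncertain size as 8 of 10 adult arrays did not read the probe above background. Without 2-week male 6 these differences were 0.52 and −0.55. Without 2-week untreated female 5 the second of these did not pass (limma adjusted p = 0.0501). PDTC rats had medians of 5.28, 5.95 and 5.08 at the same 3 ages.

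Markers of other cells and of injury differed between these ages too, as did 64% of all probes (31.7% higher and 32.3% lower in adults than at 2 weeks). The counts below are of markers that passed the threshold. Of 13 leukocyte markers tested, 12 were higher in untreated adults than at 2 weeks (median difference 1.47), and 9 of 13 were higher with arrays scaled to one median. The mean log2 level of the 14 markers on the array lay between 7.56 and 8.51 in adult and between 6.44 and 6.94 in 2-week untreated rats. S100a9 was above background on 0 of 59 arrays and Ptprc on 9 of 20 adult arrays. Tubular injury markers were higher in adults for 4 of 6 tested and lower for 1 (median 1.18), or 3 higher and 2 lower with arrays scaled to one median. Erythroid markers were lower for 3 of 4 (median −2.90), and for 4 of 4 on that scale. Endothelial markers were lower for 4 of 5 (median −0.76) and higher for 1, with a difference of 2.57. The part of these markers in the age difference was not tested.

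Adult rats differed widely from each other within a group, and the survival genes led that spread. Birc3 read 8.0, 7.12, 7.67, 8.77 and 10.24 in PDTC females and 7.25, 8.22, 8.92, 7.51 and 7.24 in PDTC males. In untreated females it read 10.25, 8.45, 8.33, 9.38 and 6.13, and in untreated males 8.05, 8.06, 6.87, 8.47 and 7.96. The highest and the lowest adult are thus both untreated females, and a PDTC female stands next to the highest.

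Bcl2a1 read 8.38, 8.53, 7.78, 9.52 and 10.34 in PDTC females, 7.43, 8.72, 9.35, 8.44 and 7.20 in PDTC males, 9.78, 8.77, 9.03, 8.88 and 7.52 in untreated females, and 9.28, 9.24, 7.57, 9.83 and 7.65 in untreated males. PDTC female 5 was the highest of the 20 for Bcl2a1, and PDTC male 5 the lowest.

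A slope of each probe on the leukocyte marker level of the same array, within the 4 adult groups, was fitted after the data were seen. Of the 8 members tested 3 passed, all with a positive slope, against a background of 9.26% of 11701 probes called (4.24% positive). Per unit of the marker level, Bcl2a1 rose by 1.87 ± 0.33 (limma adjusted p = 0.00308), Birc3 by 1.74 ± 0.472 (limma adjusted p = 0.0280) and Nfkb2 by 0.75 ± 0.219 (limma adjusted p = 0.0374). The slopes of Nfkbia (0.56), Nfkbib (0.36), Rela (0.35), Ikbkb (0.10) and Nfkb1 (0.06) did not pass. Without PDTC female 5, which had the highest marker level at 9.15, the slopes were 2.20 for Bcl2a1, 1.58 for Birc3 and 0.87 for Nfkb2. Of the 8 members tested 1 then passed (Bcl2a1, limma adjusted p = 0.00775), against 9.93% of 11650 probes.

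**Figure D4:**
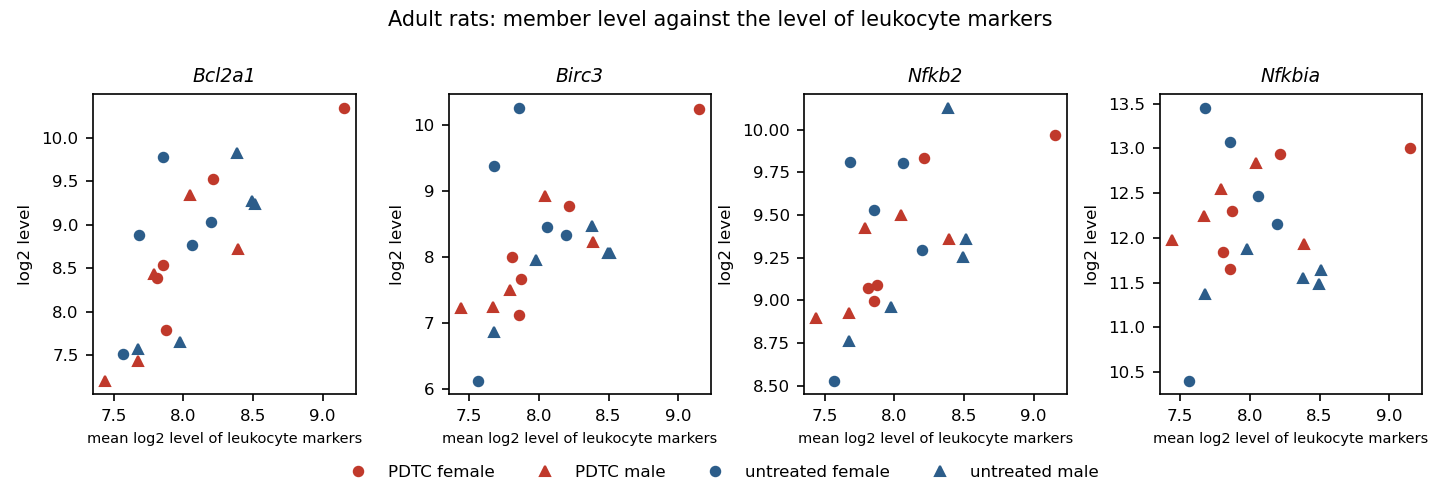
Log2 level of Bcl2a1, Birc3, Nfkb2 and Nfkbia (vertical axes) against the mean log2 level of the leukocyte markers on the same array (horizontal axis) in the 20 adult rats, by treatment and sex. Bcl2a1, Birc3 and Nfkb2 had positive slopes of 1.87, 1.74 and 0.75 that passed; that of Nfkbia, 0.56, did not.

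Deviations from the group means over the 20 adult arrays are described by Pearson's r, without a test, since these values share arrays and normalization. Nfkb2 and Bcl2a1 had r = 0.84 (Spearman's rho 0.82), Nfkbia and Birc3 0.84 (0.78), Birc3 and Bcl2a1 0.82 (0.87), and Nfkb2 and Birc3 0.80 (0.83). Without the PDTC and the untreated female 5, these 4 values of r were 0.78, 0.67, 0.75 and 0.63 over 18 arrays. Ikbkb had r between −0.18 and 0.36 with the other members.

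Between the sexes, none of the members passed in untreated adults, against a background of 1.34% of 11701 probes called. None passed at 2 days or 2 weeks either, where 0% of probes were called. Ikbkb came nearest in adults. It read 8.53, 8.63, 8.52, 8.29 and 8.37 in untreated females, all below the 8.99, 8.90, 8.70, 8.75 and 9.06 of untreated males, a fold of 0.752 (−0.41 ± 0.128, limma adjusted p = 0.147). No overlap held for 2.97% of probes in this contrast (1.39% lower in females), and the difference was below 0 on each of 4 slides. In PDTC rats Ikbkb read 8.47, 8.62, 8.38, 8.68 and 8.53 in females and 8.56, 8.89, 8.73, 8.90 and 8.89 in males, which overlap. The Nfkbia difference, untreated females minus males, was 0.73 ± 0.406 (limma adjusted p = 0.582), and 1.20 without untreated female 5 (limma adjusted p = 0.0551). All 6 tubular injury markers tested had lower values in untreated females than in males (median −0.89, 2 called), and 12 of 13 leukocyte markers did (median −0.29, 0 called). Their part in the sex differences was not tested.

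The rest of the pathway was read through 4 lists of other genes, given by role. For the other subunits, Rel and Relb, no probe carries the symbol in the annotation used here. Under PDTC 0 of 41 genes tested passed at each age. The genes with the smallest p at 2 days were the inhibitor-binding Nkiras1 (0.49 ± 0.142, limma adjusted p = 0.139), the adaptor Tab2 (0.28 ± 0.091, limma adjusted p = 0.169), the cytokine Il1b (−0.16) and the survival gene Bcl2l1 (−0.33). At 2 weeks they were Map3k14, the kinase of the alternative pathway (0.26), Nfkbil1 (−0.20), Tnfrsf1a (0.16) and Birc2 (0.13), and in adults Ripk2 (−0.40), Lta (−0.43), Nkiras2 (−0.29) and Mcl1 (0.22). Of the 41 genes tested 9 had an unadjusted p under 0.05 at 2 days, 2 at 2 weeks and 3 in adults. Of all probes 15.8%, 5.22% and 5.71% did at these ages.

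The shares of all probes called stand beside these lists: 16.9% were higher at 2 weeks than at 2 days, and 31.7% were higher and 32.3% lower in adults than at 2 weeks. Of receptors and ligands in untreated rats at 2 weeks 3 of 6 tested were higher than at 2 days, led by the receptors Cd40 (0.70 ± 0.129, limma adjusted p = 0.000165) and Tlr2 (0.49 ± 0.104). In adults 8 of 9 were higher than at 2 weeks and 1 lower, led by the cytokines Il1b (3.16 ± 0.318, limma adjusted p = 2.46e-08) and Tnfsf13b (1.48 ± 0.155). Scaled to one median, 5 were higher and 3 lower, against 1582 of all 13114 probes higher and 7583 lower.

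Of kinases and scaffolds, 3 of 19 were higher at 2 weeks than at 2 days, a share near that of all probes, among them the adaptor Myd88 (0.31 ± 0.0967) and the kinase Ripk1 (0.78 ± 0.267). In adults 10 were higher and 4 lower than at 2 weeks, led by Myd88 (1.52 ± 0.123, limma adjusted p = 7.74e-10) and the adaptor Card9 (1.13 ± 0.172), and scaled to one median 3 were higher and 8 lower. Of other inhibitors 1 of 6 was higher at 2 weeks, Tax1bp1 (0.34 ± 0.108), likewise near the share of all probes. In adults 4 of 7 were higher and 1 lower than at 2 weeks, led by Tnip2 (1.01 ± 0.14) and Nkiras1, which fell by 1.54 ± 0.385, and scaled to one median 1 was higher and 3 lower.

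Of other survival genes 3 of 8 were higher at 2 weeks, led by Ier3 (0.44 ± 0.113) and Sod2 (0.27 ± 0.0801), which encodes the mitochondrial superoxide dismutase. In adults 6 of 8 were higher than at 2 weeks, led by Bcl2l1 (1.03 ± 0.158) and Ier3 (1.16 ± 0.197), and scaled to one median 1 was higher and 2 lower. In the plot of age differences by role, the 43 other genes tested between adults and 2 weeks had 28 higher and 6 lower with a median of 0.48, and with arrays scaled to one median 10 higher and 16 lower.

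**Figure D5:**
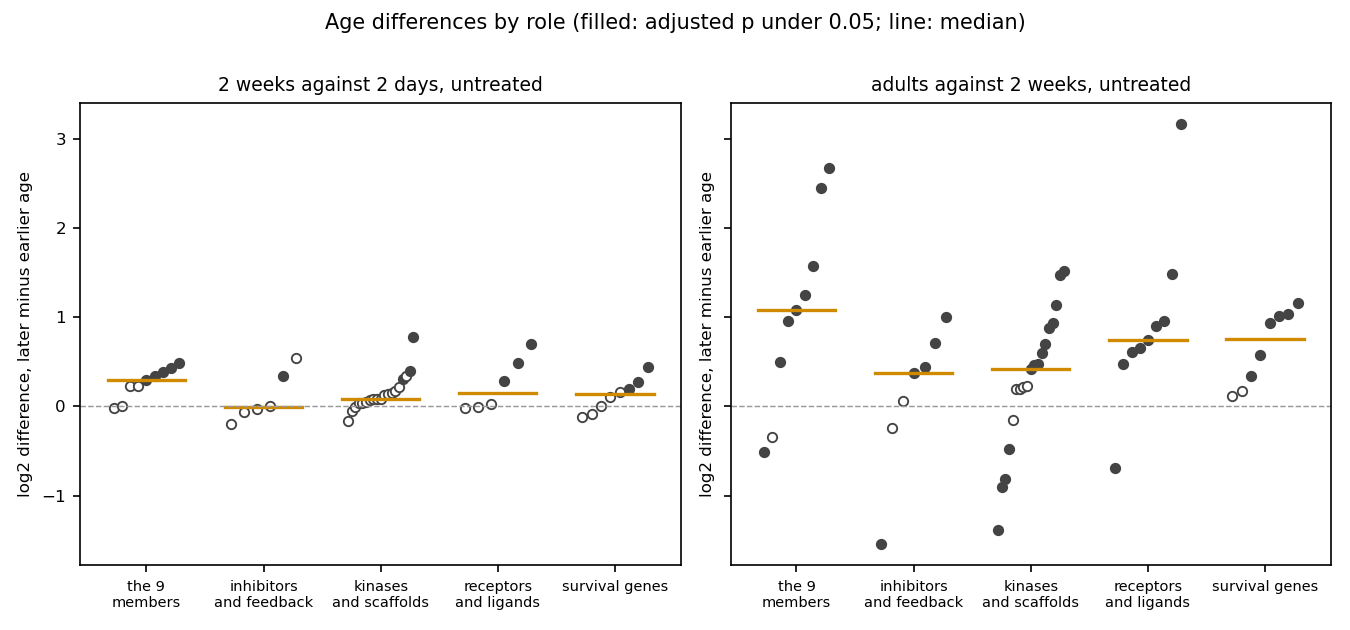
Log2 difference between ages in untreated rats, 2 weeks minus 2 days and adults minus 2 weeks (vertical axes), for the 9 genes and 4 lists of other pathway genes by role (horizontal axis). Filled points passed at an adjusted p under 0.05 and the line is the median of each group, 1.08 for the 9 genes in adults against 2 weeks. These medians are on quantile-normalized values; scaled to one median, the median of all probes was −0.57 in that comparison and more of the other genes were lower than higher.

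The genes whose levels followed those of the members most closely were sought over all 59 arrays, as Pearson's r of deviations from group means among 8903 probes. Bcl2a1 was most like Plek (0.888) and Cfb (0.792), and Nfkbia most like Cxcl1 (0.822) and Cebpb (0.800). Nfkb2 was most like Csf1 (0.796) and Got1 (0.679), and Rela most like Gpr176 (0.732) and Rps6kb2 (0.717). Nfkbib was most like Rrp1 (0.820) and Ubl7 (0.801), and Ikbkb most like Nelfb (0.761) and Polr2b (0.706). After slide means were also removed, r was 0.879 for Bcl2a1 with Plek and 0.840 for Nfkbia with Cxcl1, while Ikbkb with Polr2b had 0.502. Nfkb1, Birc3 and Tnfaip2 were above background on fewer than 50 arrays and were not compared.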

How the data were processed

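RNA of 59 rat kidneys was measured on Illumina RatRef-12 arrays. The authors' deposited intensity table gives for each array and probe a mean signal that was not normalized, per the file headers, beside a deposited detection p-value; the authors also deposited log2 values, which differed by at most 0.161 from quantile-normalized log2 signals. Neither scanner software nor normalization method is given in the sources used here. The p-value proved two-sided (18.5% to 27.2% of probes on an array lay below background with a p-value under 0.05), so the planned neqc was adapted. The background level was the median over the 50 probes of highest p-value, with an SD taken from lower signals, mirrored; normexp, an offset of 16, quantile normalization over all arrays and log2 followed. A probe above background (one-sided p of 0.05) on at least 4 arrays of a fit was tested with limma 3.58.1 in R 4.3.3 on group means (lmFit, eBayes, Benjamini-Hochberg over all probes, threshold 0.05). Arrays of 1 age shared a fit, and comparisons of ages used the untreated groups.

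Precision is set by the number of arrays and by the spread between rats. Groups came from the labels, and replicate numbers from accession order. Of the probes 13793 had 1 symbol, 0 several and 8730 none; 13752 had their gene ID in the GRCr8 table. No 2 arrays held the same signals. The members and lists were chosen with earlier results of these data known. Genes named outside the members were, per list, the smallest p under PDTC and the 2 smallest p past the threshold between ages. Likeness took the 2 named genes with the highest r. Alternatives were no normexp, scaling to one median, no filter, a filter on the deposited p-value, the authors' own log2 values, slide as a block (a fixed term, or random), 1 fit of all arrays, array weights and leaving out each array. The test was tried on simulated data.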

Additional observations from a re-analysis of the deposited data

Results flagged for a closer look

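Each of 9 genes was checked in each of 12 groups of 4 to 6 rats, and 5 of these sets held 1 array far from the others, close to the about 1 in 20 that chance gives. For Rela, 2-week untreated male 6 lay at 8.93 and the nearest rat of its group at 8.36. For Nfkbib the same array lay at 9.79, with the nearest rat at 9.23. Its values enter the age and 2-week PDTC comparisons, and the differences without it stand above. For Nfkb2, 2-day untreated female 2 lay at 6.89, below the next at 7.31. For Nfkbia, 2-week PDTC male 4 lay at 11.01, above the next at 10.68. For Tnfaip2, adult untreated male 1 lay at 4.68, below the next at 5.09, where the probe was not above background.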

How the results depend on the processing

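No member passed under PDTC in any alternative, nor with any 1 array left out. For the number of members called, 1 passed between untreated adult sexes in 1 fit of all 59 arrays (Ikbkb, adjusted p = 0.00634). Between 2 weeks and 2 days, 3 passed with arrays scaled to one median and 3 in 1 fit. Between adults and 2 weeks, 3 passed with slide as a fixed term, which rests on 2-week male 6. For the leukocyte slope, 1 passed without adult PDTC female 5. Among differences that passed in the main fit, the direction turned for Ikbkb with arrays scaled to one median (−0.43 against 2 weeks, −0.40 against 2 days). It also turned for Tnfaip2 with slide fixed (adults against 2 weeks, 0.033). Of the 2 Ikbkb values, that against 2 weeks did not pass when scaled. With these 3, differences changed sign in 105 of 1566 values in the alternatives and in 248 of 3833 with 1 array left out; the others had not passed, among them Nfkb1 between adults and 2 weeks (1.26 with slide fixed) and Nfkbia under PDTC at 2 days (0.05 when scaled). Scaling to one median also moved the median of all probes by 0.12 in the PDTC comparison at 2 days and 0.13 at 2 weeks. Apart from these 3 reversals, 11 member values no longer passed and 8 newly passed among 1566 in the alternatives, and 1 and 6 among 3833 with 1 array left out. The causes were not tested.

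Probes called under PDTC at 2 days were 373 with array weights, 1 in 1 fit of all arrays and 0 to 258 with 1 array left out (258 without untreated male 4), against 0. In 2-day males they were 1 with slide as a random block and 0 to 4. In adults 51 passed in 1 fit, in adult males 303 (38 with weights, 0 to 10 with 1 array left out) and in adult females 129. The difference of the adult effect between sexes had 435 in 1 fit, 1 with weights and 0 to 2 with 1 array left out. Between untreated 2-day sexes 1 passed with weights, with the deposited log2 values and with a random block. Between untreated adult sexes 42, 1018 and 237 passed with scaling, 1 fit and weights, and 89 to 172 with 1 array left out, against 157. Between 2 weeks and 2 days 2722 passed with scaling, against 5059, and between adults and 2 weeks 715 with slide fixed, against 8393. Slide could not be fitted as a fixed term between adults and 2 days.

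With 1 array left out, Rela between 2 weeks and 2 days was 0.16 to 0.25 (adjusted p = 0.0324 to 0.0994) and Tnfaip2 between adults and 2 weeks −0.61 to −0.42. No paired analysis was possible because replicate numbers come from accession order and the labels pair no rats. Signal over background limits Birc3 and Tnfaip2 in pups, Nfkb1 and Tnfaip2 in adults.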
